A study of Mus musculus with 20 samples.

Results

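Eosinophils live with oxidants that they and their neighbours make, and the 10 genes described here encode enzymes and a transporter that remove superoxide, peroxides and quinones or supply the glutathione and thioredoxin used to do so. They are the superoxide dismutase genes Sod1, Sod2 and Sod3, the peroxide-removing enzymes Cat, Gpx1 and Prdx1, the thioredoxin reductase Txnrd1, the glutathione supply genes Gclm and Slc7a11, and the quinone reductase Nqo1. They were taken by name, by a rule that itself uses no measured value, but with earlier results of these data known. Each symbol matched a single Ensembl identifier among the 49315 in the deposited count tables. All 10 passed the filter on low counts, which left 16500 genes. The study sequenced RNA of eosinophils sorted by flow cytometry from mouse lung, in libraries that each pooled the lungs of 3 to 5 animals. Its labels list 4 groups of 5 libraries, and 2 groups could be tied to count columns. The first holds eosinophils from Balb/c lungs that had been transplanted into C57BL/6 mice and taken at day 7 without costimulatory blockade, abbreviated CSB in the labels, which is treatment that blocks the accessory signals that T cells need to be activated. The other holds eosinophils from resting lungs of untreated C57BL/6 mice. The grafts with blockade at day 7 and day 30 were not analysed here. According to the labels the eosinophils in the grafts come from the recipient, and the absence of blockade is given by the sample titles alone, since the shared protocol text speaks of transplantation with blockade. The labels used here give neither age nor sex.

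Superoxide dismutases turn superoxide into hydrogen peroxide, which catalase, glutathione peroxidases and peroxiredoxins then reduce to water. Many genes that feed the glutathione and thioredoxin cycles are controlled by the transcription factor NRF2, encoded by Nfe2l2. KEAP1 holds NRF2 for destruction until oxidants or electrophiles modify it, and NRF2 then binds antioxidant response elements in DNA together with a small MAF protein, while BACH1 competes for the same elements. Sod2 is also a well-known target of NF-kB, and eosinophils and phagocytes produce superoxide in bulk through their NADPH oxidase.

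Total counts ranged from 15695074 to 26683784 in the day 7 libraries and from 6666577 to 12883144 in the resting libraries, and the ranges did not overlap (exact two-sided permutation p = 0.00794, the smallest that 5 against 5 can give). The columns of the 2 groups stood in separate tables, so table, sequencing depth and group cannot be told apart. The mouse strain of the lung tissue differed with group as well and cannot be told apart from it either. The eosinophil receptor genes Ccr3, Il5ra and Siglecf were detected in both groups, and 15 eosinophil markers summed to 2365 to 4471 CPM (each count as a share of its library's TMM-scaled total, the usual CPM unit) at day 7 and to 2345 to 4098 CPM in resting lung. Transcripts of other cells were present as well. Summed markers of monocytes and interstitial macrophages lay between 5365 and 11883 CPM at day 7 and between 2660 and 3425 CPM in resting lung, with 11 of 14 genes higher. Summed markers of endothelium lay between 80.7 and 143 CPM at day 7 and between 1912 and 2642 CPM in resting lung, with 10 of 10 lower. Epithelial markers summed to 567 ± 158 CPM at day 7 and 4249 ± 613 CPM in resting lung (mean ± SD, n = 5 each, here and below). Red cell markers summed to 81.5 ± 22.6 CPM at day 7 and 1661 ± 267 CPM in resting lung, and T cell markers to 683 ± 219.9 CPM at day 7 and 155 ± 24.5 CPM in resting lung. In these lists 9 of 11 epithelial genes and 8 of 8 tested red cell genes were lower, and 12 of 12 T cell genes were higher. Platelet markers fell (8 of 8 genes lower), alveolar macrophage markers gave 2 higher and 6 lower of 10, B cell markers 7 lower of 8, neutrophil markers 5 lower of 12, dendritic cell markers 6 higher and 1 lower of 10, and mast cell and basophil markers 1 higher and 1 lower of 6 tested. Neutrophil markers summed to 8052 ± 2098 at day 7 and 10770.3 ± 1337 CPM in resting lung. Of the 15 eosinophil markers 3 were higher and 6, granule genes such as Epx among them (6.89 ± 3.83 at day 7 and 93.1 ± 69.1 CPM in resting lung), were lower. The part that these cells have in the values below was not tested.

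The DNA just upstream of the genes is shown for 5 of them, because 4 hold the core letters of an antioxidant response element and Sod2, the gene with the highest fold change of the 10, does not. RefSeq promoter windows on GRCm38.p6, from 250 bases before to 50 bases after a start, were given for all of the genes but Sod3. The core was searched as TGACNNNGC on both strands, and 12.4% of 32851 windows of this length hold it. It was found once each in the windows of Prdx1, Gclm and Sod1 and at 1 of the 3 starts of Txnrd1, each time on the opposite strand, and not in those of Sod2, Cat, Gpx1, Nqo1 and Slc7a11. The 250 bases before the start are printed in the direction of transcription. Capitals mark the response element core in the first 4, and GC boxes (GGGCGG on either strand, held by 35.7% of windows) in Sod2. The windows were also searched for the letters of an NF-kB site, held by 1.47% of 32851 windows. The Sod2 window held 0 such matches. Among the genes with windows only Gpx1 had a match, from 55 to 46 bases before the start, on the opposite strand. The part of NF-kB in the Sod2 values was not tested. A match is a string of letters, not a site shown to be bound, and regulatory DNA outside the windows was not searched.
Prdx1, chr4:116685349-116685598, plus strand: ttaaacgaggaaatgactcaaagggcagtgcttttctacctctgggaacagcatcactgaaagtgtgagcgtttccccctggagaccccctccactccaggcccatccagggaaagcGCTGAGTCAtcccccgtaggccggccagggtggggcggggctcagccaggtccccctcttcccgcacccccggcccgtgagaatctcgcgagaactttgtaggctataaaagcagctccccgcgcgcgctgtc
Gclm, chr3:122245307-122245556, plus strand: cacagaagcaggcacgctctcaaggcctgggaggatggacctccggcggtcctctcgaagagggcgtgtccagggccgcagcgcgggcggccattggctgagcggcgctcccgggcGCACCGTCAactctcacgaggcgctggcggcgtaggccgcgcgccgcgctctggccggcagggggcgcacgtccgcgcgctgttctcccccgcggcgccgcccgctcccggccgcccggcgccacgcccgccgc
Txnrd1, chr10:82858956-82859205, plus strand: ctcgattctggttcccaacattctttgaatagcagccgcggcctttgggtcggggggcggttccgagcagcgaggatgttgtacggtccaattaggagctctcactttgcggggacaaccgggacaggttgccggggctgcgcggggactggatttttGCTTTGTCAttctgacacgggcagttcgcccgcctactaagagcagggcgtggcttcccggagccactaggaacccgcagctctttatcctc
Sod1, chr16:90220512-90220761, plus strand: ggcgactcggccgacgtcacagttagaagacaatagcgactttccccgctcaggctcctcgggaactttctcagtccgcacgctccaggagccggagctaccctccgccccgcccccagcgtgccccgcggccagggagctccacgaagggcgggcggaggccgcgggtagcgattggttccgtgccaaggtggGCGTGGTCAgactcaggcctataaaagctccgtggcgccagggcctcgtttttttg
Sod2, chr17:13007589-13007838, plus strand: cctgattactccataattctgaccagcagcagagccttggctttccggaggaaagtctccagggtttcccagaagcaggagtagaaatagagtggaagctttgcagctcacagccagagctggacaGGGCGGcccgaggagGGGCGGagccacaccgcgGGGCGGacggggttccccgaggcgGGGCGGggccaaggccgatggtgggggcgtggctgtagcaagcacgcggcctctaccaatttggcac
The core begins 133 bases before the start in Prdx1, where it reads GCTGAGTCA on the printed strand. It begins 134 bases before the start in Gclm (GCACCGTCA), 92 in Txnrd1 (GCTTTGTCA) and 56 in Sod1 (GCGTGGTCA). The Sod2 window holds 4 GC boxes. Those of Sod1 and Gclm, where such boxes are left in lower case, hold 4 each as well. The Prdx1 window and that of the printed Txnrd1 start hold 1 each, so GC boxes are not particular to Sod2.

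The comparison asks how the antioxidant genes of eosinophils sorted from a graft without blockade differed from those of resting lung eosinophils. Of the 10 genes, Sod2, Prdx1, Gclm, Txnrd1 and Slc7a11 were higher in the graft, Sod3, Cat and Sod1 were lower, and Gpx1 and Nqo1 did not pass (edgeR's quasi-likelihood test with Benjamini-Hochberg adjustment over all genes, threshold 0.05). Among all 16500 genes 46.7% were called, 23.3% higher and 23.4% lower. For 6 of the 10 genes no library of one group reached into the range of the other, 4 with the grafts above and 2 below. Among all genes tested 35.1% were separated in this way, 16.4% above and 18.7% below. The median log2 fold change, day 7 minus resting, was 0.40 for the 10 genes and 0.05 for all genes tested. When CPM were scaled by library totals and nothing else, the median of all genes was lower by 0.19, with 33.8% rather than 49.9% of the called genes higher. Of 98 tested genes in the wider lists below, the 10 left out, 29 were higher and 36 lower. The count of lower members moved with single libraries: it was 1 instead of 3 without day 7 replicate 3, resting replicate 3 or resting replicate 5.

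**Figure D1:**
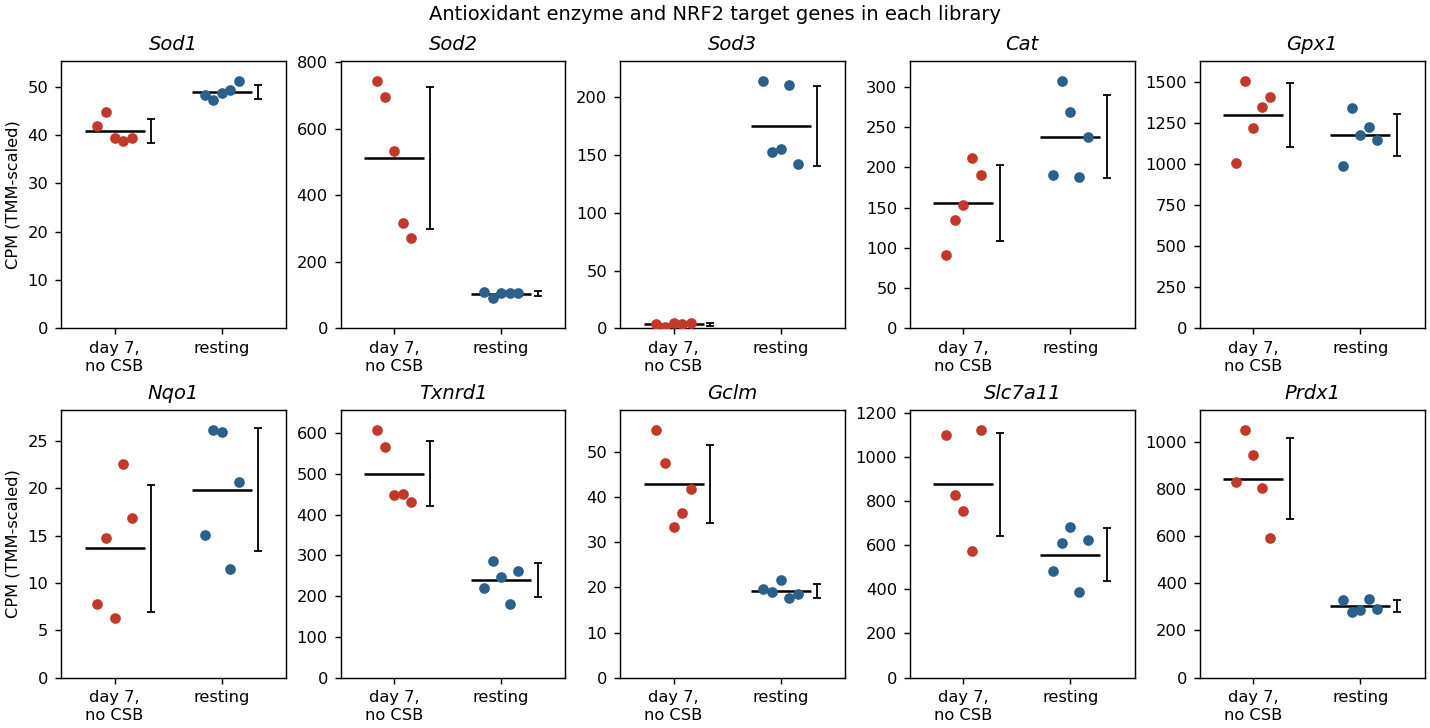
CPM of each of the 10 genes in each library, with day 7 grafts without CSB in red on the left of each panel and resting lungs in blue on the right, replicates 1 to 5 from left to right, the mean as a line and the SD as a bar (n = 5 each). Sod2, Prdx1, Gclm and Txnrd1 lie wholly above the resting libraries, Sod3 and Sod1 wholly below, and the other 4 genes overlap.

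Of the superoxide dismutase genes, Sod2 was higher and Sod3 and Sod1 were lower. Sod2, the manganese enzyme of the mitochondrial matrix (ENSMUSG00000006818, mm10 chromosome 17, 13006846 to 13040063), had 744, 695, 533, 317 and 271 CPM in day 7 replicates 1 to 5, against 111, 92.2, 108, 107 and 106 CPM in resting replicates 1 to 5. Every graft library lay above every resting library, and replicates 4 and 5 were the lowest of the grafts. Its log2 fold change was 2.29 ± 0.26 (SE, quasi-likelihood adjusted p = 9.57e-06), larger than that of 98.1% of genes tested. Sod3, the secreted enzyme that sits in the matrix of lung and vessel wall (ENSMUSG00000072941, chromosome 5, 52363791 to 52371418), had 4.08, 0.989, 4.51, 3.89 and 4.42 CPM at day 7, against 214, 152, 155, 210.01 and 142 CPM in resting lung. The groups were far apart, and day 7 replicate 2 was lower than the other grafts. The log2 fold change was -5.60 ± 0.33 (adjusted p = 2.96e-08), a 48.5-fold lower level. In bulk samples such as these, fewer cells of a type and less RNA per cell cannot be told apart. Beside Sod3, the endothelial gene Cdh5 had 4.59 ± 1.92 CPM at day 7 and 173 ± 26.5 CPM in resting lung. The smooth muscle gene Myh11 had 0.74 ± 0.50 CPM at day 7 and 10.8 ± 0.24 CPM in resting lung, and the alveolar type 2 gene Sftpc 139 ± 88.95 CPM at day 7 and 1821 ± 493 CPM in resting lung. Day 7 replicate 2 also had the lowest summed stromal and smooth muscle markers, 137 CPM against 368 to 677 CPM in the other grafts and 1003 to 1285 CPM in resting lung. That list gave 2 higher and 6 lower genes of 11.

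Sod1, the copper-zinc enzyme of the cytosol (ENSMUSG00000022982, chromosome 16, 90220754 to 90226329), differed little. It had 41.9, 44.7, 39.4, 38.8 and 39.4 CPM at day 7 and 48.3, 47.2, 48.8, 49.2 and 51.2 CPM in resting lung. The ranges were narrow and did not overlap, and the log2 fold change was -0.26 ± 0.09 (quasi-likelihood adjusted p = 0.0269). The call was lost when no low genes were removed (adjusted p = 0.475), with the replicate number as a block (0.0840), and without day 7 replicate 3, 4 or 5 or resting replicate 3 or 5 (up to 0.0754). Ccs, the chaperone that loads copper into Sod1, did not pass, at 17.7 ± 2.54 at day 7 and 16.1 ± 1.68 CPM in resting lung (adjusted p = 0.440).

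Within each library the ratio of Sod2 to Sod1 counts does not depend on library scaling. Its log2 was 2.78 to 4.15 at day 7 and 0.96 to 1.20 in resting lung, a difference of 2.44 (exact two-sided permutation p = 0.00794, adjusted over 8 ratios 0.0212). For Sod3 over Sod1 the log2 ratio was -5.46 to -3.12 at day 7 and 1.48 to 2.14 in resting lung, with the same p-values. Levels of different genes can be set side by side only per length. Per kilobase of the principal transcript, Sod2 made up 55.4 ± 10.2% of the summed dismutase level at day 7 and 12.7 ± 0.68% in resting lung. Sod3 made up 0.70 ± 0.36% at day 7 and 32.9 ± 4.30% in resting lung, and Sod1 43.9 ± 9.92% at day 7 and 54.4 ± 3.90% in resting lung (mean ± SD, n = 5 each). In day 7 replicates 4 and 5 Sod1 had the larger share, 52.3 and 56.5%, against 46.8 and 42.4% for Sod2. All of these shares depend on the length used. Per kilobase of all annotated exons Sod2 made up 80.1 ± 6.98% at day 7 and 15.2 ± 1.67% in resting lung. Sod3 then made up 1.8 ± 1.07% at day 7 and 66.8 ± 4.08% in resting lung, and Sod1 18.1 ± 6.02% at day 7 and 18.0 ± 2.51% in resting lung, so that the gene with the highest share in resting lung was Sod3 by this length and Sod1 by the other.

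**Figure D2:**
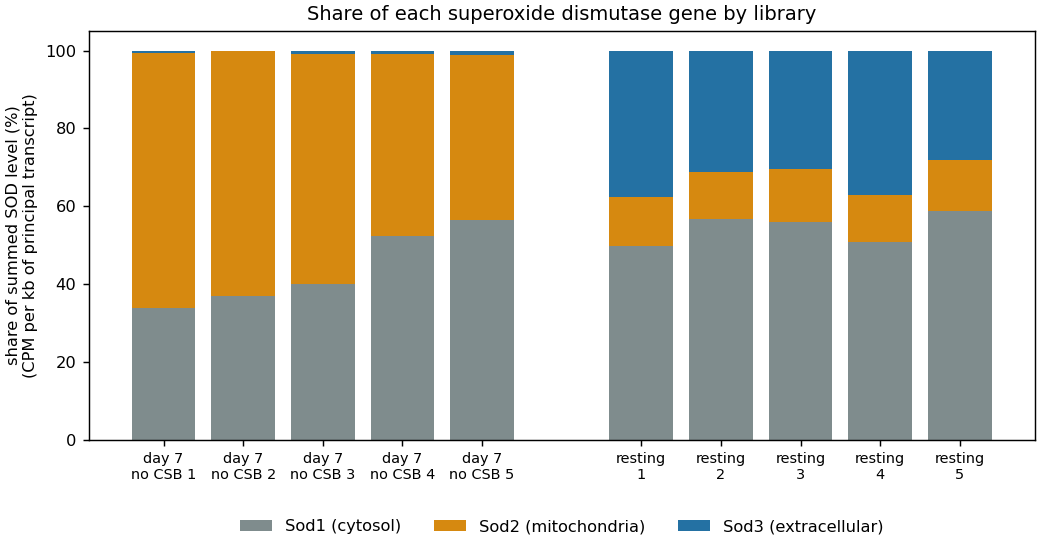
Share of Sod1 (grey), Sod2 (orange) and Sod3 (blue) in the summed dismutase level of each library, in percent of CPM per kilobase of principal transcript, with day 7 grafts without CSB on the left and resting lungs on the right. Sod2 takes 42.4 to 65.6% of each graft library and 12.1 to 13.6% of each resting library, and Sod3 takes at most 1.09% in the grafts and on average 32.9% in resting lung.

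Among the enzymes that remove hydrogen peroxide, Cat was lower and Gpx1 did not pass. Cat, the peroxisomal catalase (ENSMUSG00000027187, chromosome 2, 103453849 to 103485160), had 91.5, 135, 153, 211 and 190.1 CPM at day 7 and 189.9, 307, 268, 188 and 237 CPM in resting lung. The groups overlapped, with day 7 replicates 4 and 5 as high as resting replicates 1 and 4. Its log2 fold change was -0.61 ± 0.21 (quasi-likelihood adjusted p = 0.0314). The call ended without day 7 replicate 1, 2 or 3 or resting replicate 2, 3 or 5 (adjusted p up to 0.0907). Red cells are rich in catalase, and 8 of 8 tested red cell markers were lower in the same libraries. Summed red cell markers were 111, 70.8, 52.9, 76.3 and 96.8 CPM in day 7 replicates 1 to 5. In resting replicates 1 to 5 they were 1815, 1512, 1819, 1897 and 1262 CPM. Day 7 replicate 1 thus had the highest of the graft sums and the lowest Cat. The part of red cells in the Cat values was not tested. Gpx1, the main glutathione peroxidase of the cytosol and a selenoprotein (ENSMUSG00000063856, chromosome 9, 108338903 to 108340343), had 1006, 1509, 1224, 1347 and 1414 CPM at day 7 and 989, 1343, 1178, 1231 and 1147 CPM in resting lung. The libraries of both groups were spread over the same range, with a log2 fold change of 0.14 (95% interval -0.13 to 0.41, adjusted p = 0.427). It turned to -0.045 with library totals alone. The log2 ratio of Cat to Gpx1 counts was -3.49 to -2.67 at day 7 and -2.71 to -2.13 in resting lung (difference -0.78, exact permutation p = 0.0159, adjusted 0.0317). Leaving out any of 8 single libraries took this adjusted p to between 0.0508 and 0.0635. The smallest exact p that 4 against 5 can give is 0.0159, so the adjusted p can rise without a smaller difference. With each single library left out the difference stayed between -0.89 and -0.68.

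No glutathione peroxidase gene was higher. Of 6 tested, Gpx2, Gpx3, Gpx7 and Gpx8 were lower, and Gpx1 and Gpx4 did not pass. Gpx3, the secreted plasma form, had 32.4 ± 8.50 CPM at day 7 and 739 ± 133 CPM in resting lung (log2 fold change -4.51 ± 0.22). Gpx4, which reduces lipid peroxides in membranes, had 259 ± 69.9 at day 7 and 269 ± 28.1 CPM in resting lung. Gpx2, Gpx7 and Gpx8 were scarce in both groups, at 0.26 to 1.58 CPM on average at day 7 and 2.37 to 7.45 CPM in resting lung.

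Prdx1, Prdx2, Prdx5, Txn1, Txnrd1 and Txnrd2 were higher in the grafts. Prdx1, a cytosolic peroxiredoxin (ENSMUSG00000028691, chromosome 4, 116685544 to 116700822), had 828, 1049.7, 945, 805 and 591 CPM at day 7 and 331, 277, 288, 333 and 291 CPM in resting lung. The lowest graft library was well above the highest resting library, and the log2 fold change was 1.47 ± 0.15 (quasi-likelihood adjusted p = 3.28e-06). Prdx2, its close cytosolic relative and an abundant red cell protein, rose less, at 99.6 ± 18.4 at day 7 and 62.9 ± 5.2 CPM in resting lung. The log2 ratio of Prdx1 to Prdx2 counts averaged 3.08 ± 0.13 at day 7 and 2.27 ± 0.11 in resting lung, without overlap, a difference of 0.81 (exact permutation p = 0.00794, adjusted 0.0212). Prdx5 rose by a log2 fold change of 1.77 ± 0.17, with 704 ± 184 at day 7 and 207 ± 19.8 CPM in resting lung. Prdx3 of mitochondria, Prdx4 of the endoplasmic reticulum and Prdx6 did not pass. Prdx6 had 619.9 ± 78.6 at day 7 and 643 ± 64.4 CPM in resting lung.

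Txnrd1, the cytosolic thioredoxin reductase and a selenoprotein (ENSMUSG00000020250, chromosome 10, 82833951 to 82897712), had 607, 565, 447, 449 and 432 CPM at day 7 and 221, 287, 247, 180.4 and 261 CPM in resting lung. No library of the groups overlapped, and the log2 fold change was 1.06 ± 0.15 (quasi-likelihood adjusted p = 6.09e-05). Its substrate thioredoxin, Txn1, rose by nearly the same amount, 1.07 ± 0.11, with 381 ± 48.3 at day 7 and 181 ± 10.02 CPM in resting lung. Txnrd2, the mitochondrial reductase, rose to 16.8 ± 0.96 CPM at day 7, against 11.1 ± 1.68 CPM in resting lung. The log2 ratio of Txnrd1 to Txnrd2 counts differed by 0.46, which did not pass (exact permutation p = 0.0476, adjusted 0.0762). Without day 7 replicate 5 the difference was 0.55 and passed (adjusted 0.0317). Srxn1, the sulfiredoxin that repairs over-oxidised peroxiredoxins and a known NRF2 target, did not pass, at 259 ± 60.2 at day 7 and 196 ± 29.5 CPM in resting lung (adjusted p = 0.0611). Txnip, which binds and inhibits thioredoxin, had 1192 ± 219 at day 7 and 1071 ± 157 CPM in resting lung and did not pass either. Across the thioredoxin and peroxiredoxin list 7 of 20 genes were higher and 5 lower, with a median log2 fold change of 0.22, which was 0.025 with library totals alone. The lower ones included Msrb3, a methionine sulfoxide reductase, with 3.75 ± 1.63 at day 7 and 88.7 ± 8.28 CPM in resting lung, and Sesn1, a sestrin, with 23.6 ± 4.83 at day 7 and 40.6 ± 7.77 CPM in resting lung. Txnrd3, a further thioredoxin reductase gene, was lower too, so the reductases did not all rise. It had 4.95 ± 1.28 at day 7 and 10.1 ± 1.81 CPM in resting lung, without overlap (log2 fold change -1.03 ± 0.21).

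**Figure D3:**
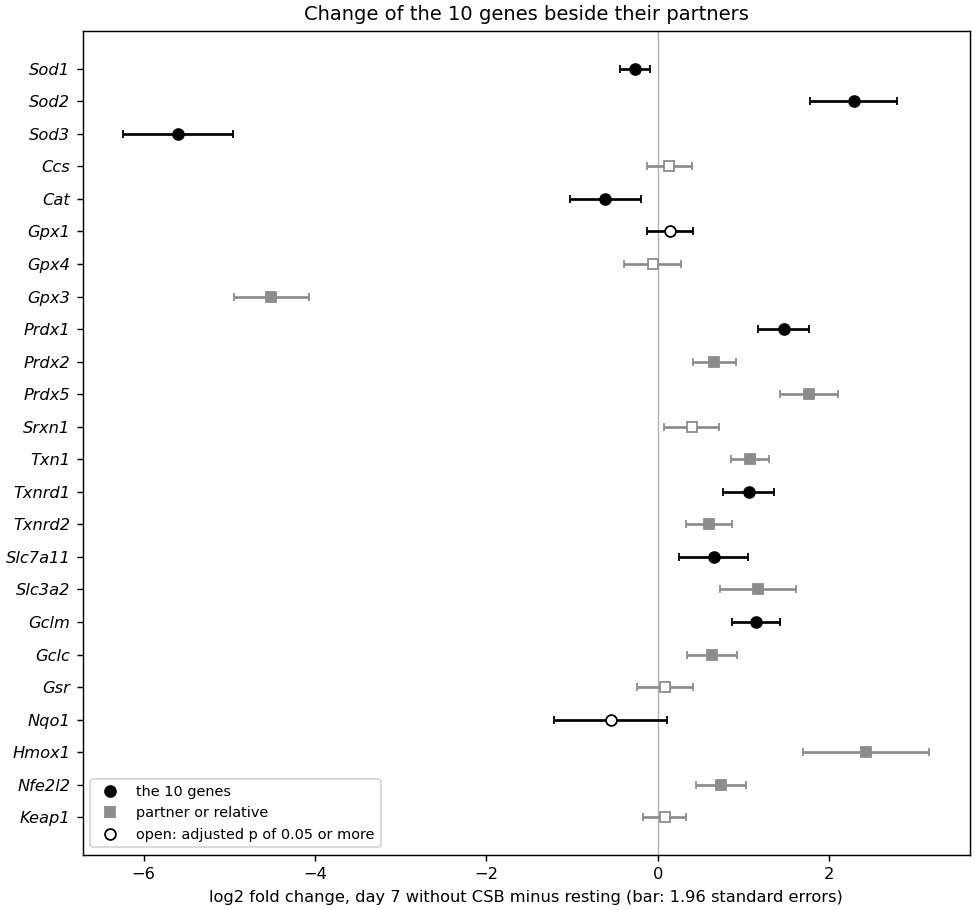
Log2 fold change, day 7 without CSB minus resting, of the 10 genes (black circles) and of partners or relatives (grey squares), with bars of the 95% interval and open symbols where the adjusted p was 0.05 or more. Sod3 and Gpx3 stand far to the left at -5.60 and -4.51, Sod2 and Hmox1 farthest to the right at 2.29 and 2.43, and Gpx1, Gpx4 and Keap1 straddle 0.

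Both genes of the glutathione supply were higher. Gclm, the modifier subunit of glutamate-cysteine ligase, which makes the first step of glutathione synthesis (ENSMUSG00000028124, chromosome 3, 122245557 to 122270732), had 54.97, 47.7, 33.5, 36.5 and 41.97 CPM at day 7. In resting lung it had 19.7, 19.0, 21.7, 17.6 and 18.5 CPM, so that no library overlapped. The log2 fold change was 1.15 ± 0.14 (quasi-likelihood adjusted p = 1.80e-05). A noncoding gene on the opposite strand, Gm17494, shares 296 exonic bases with Gclm and had 642 counts at day 7 and 180 in resting lung in all. Whether the counting used strand is not stated in the labels. Gclc, the catalytic subunit, rose as well, with 36.3 ± 2.16 at day 7 and 23.4 ± 5.36 CPM in resting lung. The log2 ratio of Gclm to Gclc counts differed by 0.47, which did not pass (exact permutation p = 0.0635, adjusted 0.0847).

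Slc7a11, the light chain of the transporter that brings in cystine in exchange for glutamate (ENSMUSG00000027737, chromosome 3, 49892526 to 50443614), had 1099.9, 828, 757, 572 and 1122 CPM at day 7 and 484, 611, 680.2, 388 and 621 CPM in resting lung. The groups overlapped through day 7 replicate 4, the lowest graft library. Its log2 fold change was 0.65 ± 0.20 (quasi-likelihood adjusted p = 0.0175), and with library totals alone it was 0.47 and did not pass (adjusted p = 0.0616). Without resting replicates 1 and 4 together, a check added after the values were seen, it was 0.49 (adjusted p = 0.0979). Slc3a2, the heavy chain that Slc7a11 shares with other amino acid transporters, had 498 ± 184 at day 7 and 221 ± 33.3 CPM in resting lung and rose by 1.17 ± 0.23. The log2 ratio of the light to the heavy chain had a difference of -0.46 and did not pass (exact permutation p = 0.206).

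Of 15 genes of glutathione synthesis, cystine import and recycling, 8 were higher and 2 lower, with a median log2 fold change of 0.63 against 0.05 for all genes. Gclm and Slc7a11 are in this list. Scaled by library totals alone, 6 were higher and 2 lower, with a median of 0.44. Glrx, a glutaredoxin, rose most among the genes over 10 CPM, with 137 ± 40.8 at day 7 and 43.3 ± 6.14 CPM in resting lung. The lower pair was Gss, the synthetase of the second step, with 14.5 ± 2.13 at day 7 and 19.2 ± 2.55 CPM in resting lung, and Glo1, a glyoxalase, with 19.1 ± 2.13 at day 7 and 29.8 ± 4.33 CPM in resting lung. Gsr, the reductase that regenerates glutathione, did not pass, at 708 ± 137 at day 7 and 667 ± 120.4 CPM in resting lung (adjusted p = 0.706). Of 16 glutathione S-transferases tested, 2 were higher and 9 lower, with a median of -1.13. Of the lower ones, Gstm1 had 34.3 ± 9.52 at day 7 and 278 ± 39.5 CPM in resting lung and Gstm2 2.66 ± 0.93 at day 7 and 53.2 ± 5.12 CPM in resting lung. Mgst1, 1 of the 2 higher ones, had 171 ± 20.2 at day 7 and 130 ± 13.9 CPM in resting lung, without overlap. Scaled by library totals alone, 0 passed as higher and 10 as lower. Such transferases are abundant in lung epithelium, of which 9 of 11 markers were lower in the same libraries and 2 did not pass. The part of epithelial cells in the transferase values was not tested. Genes of this family share sequence, and the labels do not state how reads matching several genes were counted.

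Nqo1, a quinone reductase that is among the best known NRF2 targets (ENSMUSG00000003849, chromosome 8, 107388225 to 107403206), did not pass. It had 7.80, 14.7, 6.31, 22.6 and 16.8 CPM at day 7 and 15.0, 26.2, 25.9, 11.5 and 20.7 CPM in resting lung. The groups overlapped widely. The log2 fold change was -0.55 (95% interval -1.21 to 0.11, quasi-likelihood adjusted p = 0.203), and it was below 0 in each of 15 alternative fits (-0.79 to -0.35). Without day 7 replicates 4 and 5 together, libraries picked from the values of Nqo1 and other members themselves, it was -1.03 (adjusted p = 0.0201), which is therefore no support for a difference. Hmox1, heme oxygenase and another NRF2 target, rose by 2.43 ± 0.38, with 289 ± 178 at day 7 and 53.6 ± 14.7 CPM in resting lung. Blvrb, a biliverdin reductase, had 74.2 ± 21.01 at day 7 and 22.5 ± 2.73 CPM in resting lung and the ferritin heavy chain Fth1 8894 ± 2612 at day 7 and 3211 ± 117 CPM in resting lung. Among these 22 other target genes 8 were higher and 9 lower, with a median of -0.09, which turned to 0.027 when no low genes were removed. The lower ones included the carboxylesterase Ces1d, with 2.88 ± 1.16 at day 7 and 89.5 ± 13.8 CPM in resting lung, and Ephx1, an epoxide hydrolase, with 11.8 ± 3.31 at day 7 and 69.1 ± 9.43 CPM in resting lung. Aldh3a1 had 0 counts in all day 7 libraries and 220 in the resting libraries together. With that gene set at its bound the median was the same. Hmox1 and the ferritins are abundant in macrophages, and 11 of the 14 monocyte and interstitial macrophage markers passed as higher. Of 10 alveolar macrophage markers, however, 2 were higher and 6 lower. Their sum was 1155 ± 289 CPM at day 7 and 1825 ± 289 CPM in resting lung. The part of macrophages in these values was not tested.

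Of the regulators of the pathway, Nfe2l2 had 501 ± 111 CPM at day 7 and 300.01 ± 17.6 CPM in resting lung, without overlap (log2 fold change 0.74 ± 0.15). Keap1 did not pass, at 23.6 ± 3.21 at day 7 and 22.3 ± 2.10 CPM in resting lung (adjusted p = 0.638). Of the small MAF genes, Mafg rose to 96.3 ± 16.5 CPM at day 7, against 48.7 ± 6.13 CPM in resting lung. Mafk fell to 148 ± 32.95 CPM at day 7, against 219 ± 13.6 CPM in resting lung, and Maff did not pass. Bach1, the competitor at response elements, had 102 ± 30.8 at day 7 and 66.3 ± 6.68 CPM in resting lung and was called higher, but not with library totals alone. Nfe2l1, a related factor best known for proteasome genes, fell by 1.29 on the log2 scale. In all, 4 of 10 tested regulators were higher and 2 lower, with a median of 0.22. Scaled by library totals alone, 2 passed in each direction, with a median of 0.026.

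**Figure D4:**
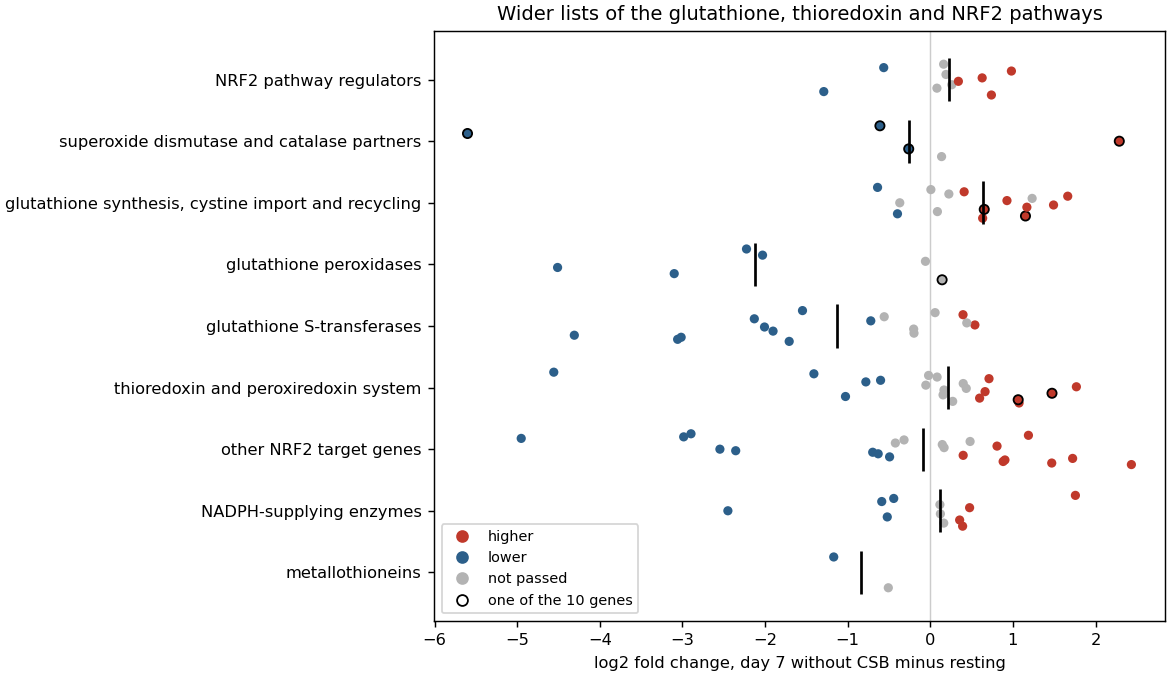
Log2 fold change, day 7 without CSB minus resting, of each tested gene in the wider lists, with higher genes in red, lower in blue, others in grey, the 10 genes ringed and the list median as a line (Aldh3a1, at 0 counts in all grafts, is not drawn). Glutathione peroxidases and transferases lie mostly to the left of 0, with medians of -2.13 and -1.13, and glutathione synthesis genes mostly to the right, with a median of 0.63.

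Per kilobase of principal transcript, Gpx1 had the highest level of the 10 genes in both groups, 1213 ± 181 CPM per kb at day 7 and 1098 ± 120.3 CPM per kb in resting lung. Prdx1 came next, at 368 ± 74.9 at day 7 and 132 ± 11.4 CPM per kb in resting lung. At day 7 Txnrd1 followed at 142 ± 22.7 CPM per kb. Behind it Slc7a11, Sod2, Sod1 and Cat lay between 94.9 and 59.7 CPM per kb, each neighbour in this order overlapping the next. Nqo1 and Gclm overlapped at 8.79 and 7.68 CPM per kb, and Sod3 was last at 0.96 CPM per kb. In resting lung Cat, Sod1, Txnrd1, Slc7a11 and Sod3 formed the middle of the order, between 91.1 and 46.7 CPM per kb, again with overlap between neighbours. Sod2 and Nqo1 overlapped at 17.9 and 12.8 CPM per kb and Gclm was last at 3.45 CPM per kb. Counting per kilobase of all annotated exons kept Gpx1 and Prdx1 on top in both groups and Sod3 last in the grafts. In resting lung it put Sod3 at rank 4 rather than 7, above Sod1, and its range overlapped that of Slc7a11 in either order. Prdx1 and Cat also overlapped in resting lung by all annotated exons, at 99.9 and 91.1 CPM per kb.

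The libraries of a group also differed among themselves in a way that ran through several of the genes. In resting lung, replicates 1 and 4 had the lowest Cat, Nqo1, Txnrd1 and Slc7a11 and the highest Sod3 and Prdx1. The same libraries had the lowest summed eosinophil markers, 2345 and 2751 CPM, against 3635 to 4098 CPM in replicates 2, 3 and 5, and the highest endothelial markers, 2642 and 2361 CPM. Among the grafts, replicates 4 and 5 had the highest Cat and Nqo1 and the lowest Sod2 and Prdx1. They had the highest eosinophil markers, 3693 and 4471 CPM, against 2365 to 2929 CPM in replicates 1 to 3, and the lowest markers of monocytes and interstitial macrophages, 5365 and 5568 CPM, against 7638 to 11883 CPM. The part of these cell types in the members' values was not tested. Without resting replicates 1 and 4 together 4 of the 10 genes were higher and 2 lower, and without day 7 replicates 4 and 5 together 5 were higher and 3 lower, with Sod1 no longer called (adjusted p = 0.134) and Nqo1 called in its place. These checks were added after the values were seen.

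**Figure D5:**
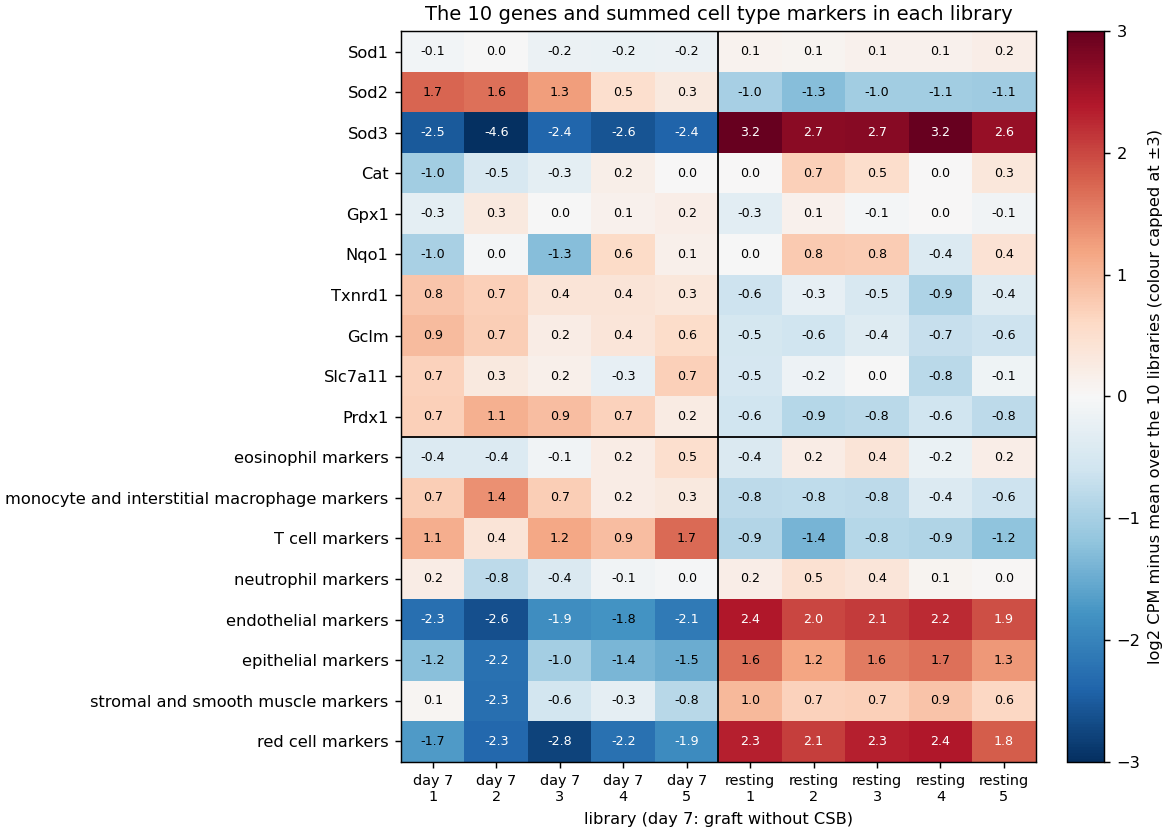
Log2 CPM minus the mean over the 10 libraries, for the 10 genes (upper block) and for summed cell type markers (lower block), in each day 7 graft without CSB (left) and each resting lung (right), with red above and blue below the mean. Sod3 and the endothelial and red cell markers are below the mean in all 5 grafts and above it in all 5 resting lungs, and Sod2 and the markers of monocytes and interstitial macrophages are higher in all 5 grafts.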

How the data were processed

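The authors deposited raw counts per gene in 2 tables (whole numbers, with a different sum in each library). The submitters' processing notes list STAR 2.5.2b, Trimmomatic 0.36, Subread 1.5.2, featureCounts, bcl2fastq 2.17 and the build mm10, and no settings, strand or multi-mapping rule is given in the sources used here. A further 10 columns whose headings match no label were not used. Symbols and gene spans came from GENCODE M21 (49056 of 49315 identifiers had a symbol), and promoter windows from RefSeq, GRCm38.p6.

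Both tables were joined by identifier and low genes were removed with edgeR's filterByExpr. Groups were compared by the quasi-likelihood test of edgeR 4.0.16 (R 4.3.3, TMM scaling, robust dispersion, group as the only term), adjusted over all 16500 genes. The standard error of a log2 fold change was taken from its F statistic, as the fold change over the root of F. The script was tested on simulated data. Ratios of related genes (0.5 added to each count) and marker sums were tested by exact permutation (two-sided) in scipy 1.17.1, adjusted over 8 ratios and 13 sums. A floor of 3 counts is 0.112 to 0.191 CPM at day 7 and 0.233 to 0.450 CPM in resting lung, covering counting error only. The labels do not say that pools were independent, and the p-values refer to the spread between these pools, which may be technical.

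The 10 genes, 9 wider lists (105 further genes) and 13 marker lists were chosen with earlier results of these data known. Named genes are the 10 genes, up to 3 higher and 3 lower per list with at least 10 CPM, every member of lists of up to 5 tested genes, and partners or relatives of the 10 genes. Genes printed beyond that rule, and the promoter motifs, were chosen after fold changes were known. Alternatives were DESeq2 1.42.0, its size factors, library totals alone, no filter, the replicate block, each library left out, and 2 pairs of libraries left out.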

Additional observations from a re-analysis of the deposited data

Results flagged for a closer look

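In 104 sets of 5 libraries that were examined (the CPM of each named gene and each ratio, per group), 6 held a library far from the other 4, about the 5% that chance gives. Day 7 replicate 2 had 0.989 CPM of Sod3, against 3.89 to 4.51 CPM in the other grafts, and a log2 ratio of Sod3 to Sod1 of -5.46. The same library had 0.824 CPM of Ces1d and the lowest summed stromal, epithelial and endothelial markers of the 5 grafts (137, 321 and 80.7 CPM). Resting replicate 2 had 92.2 CPM of Sod2, below the other resting libraries, and 54.9 CPM of Bach1, likewise the lowest. Day 7 replicate 1 had 15.5 CPM of Glo1, below the other grafts. No explanation was tested for these values.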

How the results depend on the processing

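The labels number the replicates of both groups 1 to 5, but the pools share only a number: deviations of same-numbered libraries correlated at 0.26, -0.01, -0.28, -0.33 and 0.25. With the replicate block 3317 genes were higher and 3636 lower, against 3843 and 3859 without it, and of the 10 genes only Sod1 lost its call (adjusted p = 0.0840). With library totals alone 2495 genes of all and 19 of the wider lists (29 before) were higher, and Gpx1 turned to -0.045. The difference of the marker sums was then -269.8 CPM for B cells and -3905 CPM for neutrophils, which passed, and 36.5 CPM for dendritic cells, which did not. Without a filter 6715 genes were lower. Leaving out single libraries gave 1 to 3 lower members, 5 higher members in each case, and differences of -0.89 to -0.68 for the log2 ratio of Cat to Gpx1, 0.32 to 0.55 for Txnrd1 to Txnrd2, -461 to 65.7 CPM for eosinophil markers, -208 to -134 CPM for B cell markers, -3396 to -2029 CPM for neutrophil markers and -108 to 299 CPM for mast cell and basophil markers. The calls of Sod2, Sod3, Prdx1, Gclm and Txnrd1 held in all 17 alternatives. The cause of the other changes was not tested. Depth limits scarce genes such as Sod3 in the grafts, with 341 counts over 5 libraries.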

Other observations

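The enzymes that supply NADPH to the glutathione and thioredoxin reductases gave 4 of 11 higher and 4 lower, with a median log2 fold change of 0.12. With library totals alone 1 was higher and 4 lower, with a median of -0.07, and with the replicate block 2 were higher and 4 lower. Mthfd2, a mitochondrial enzyme of folate metabolism, rose by 1.76 ± 0.21, with 28.3 ± 7.02 CPM at day 7 and 8.41 ± 2.34 CPM in resting lung. G6pdx, the entry enzyme of the pentose phosphate pathway, had 229.7 ± 27.8 at day 7 and 175 ± 29.1 CPM in resting lung and was called higher (adjusted p = 0.0300), but not with library totals alone (0.262). Taldo1, transaldolase of the same pathway, fell to 628 ± 154 CPM at day 7, against 901 ± 166 CPM in resting lung. Of the metallothioneins, Mt2 fell to 12.7 ± 4.04 CPM at day 7, against 28.5 ± 6.83 CPM in resting lung, and Mt1, with 129 ± 53.7 CPM at day 7 and 184 ± 29.0 CPM in resting lung, did not pass.

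The genes most like each of the 10 were sought among 9026 genes of at least 10 CPM, by the mean absolute difference of centred log2 CPM over the 10 libraries. For Sod3 they were S100a16, Ager and Gpihbp1 (0.17, 0.17 and 0.18), of which Ager marks alveolar type 1 cells and Gpihbp1 capillary endothelium. For Sod2 they were Fnip2, Cstb and Ctsz (0.096, 0.14 and 0.16), for Prdx1 the proteasome gene Psma5 (0.096), and for Gclm the cathepsin gene Ctsd (0.12). For Cat they were Limd2, Taldo1 and Cnn2 (0.099, 0.099 and 0.11). The measure reads mostly the difference between the groups, and the libraries of each group share a table, so it says nothing of shared control.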
